A study of Fukomys damarensis and Heterocephalus glaber and Mus musculus with 160 samples.

Results

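The Damaraland mole-rat heart was profiled by ChIP-seq for 3 histone marks in the same 5 animals, giving 15 peak lists among the 160 samples of a series on regulatory evolution in mole rats. All lists titled as heart of this species for H3K4me3, H3K27ac or H3K4me1 were taken. The animals (DMR1, DMR2, DMR3, DMR4 and DMR11) were wild-type adult males with estimated ages of 36 months (DMR2, DMR3) or 48 months (DMR1, DMR4, DMR11), with no treatment that set them apart. The whole heart was diced after blood clots had been removed from the ventricles, so each list mixes all cell types of the organ, and a mark on few cells cannot be told apart from a weak mark on many. Chromatin was cross-linked with formaldehyde and precipitated with 1 antibody per mark, and each library was called against the input library of its own animal. Library names place DMR2 and DMR4 in 1 series ("do") and DMR1, DMR3 and DMR11 in another ("vl"). Muscle and vessel marker genes were not checked, since no annotation of the genome build of these lists was used here.

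The 3 marks are used together to sort regulatory DNA. H3K4me3, the trimethylated form of lysine 4 on histone H3, is laid down around active or poised promoters. H3K4me1, the monomethylated form of the same lysine, is typical of enhancers and of the flanks of promoters, and H3K27ac, the acetylated form of lysine 27, is found at active promoters and active enhancers alike. Because a lysine can carry only 1 methylation state at a time, H3K4me3 and H3K4me1 compete for the same residue on a histone tail, whereas either can sit on the same tail as H3K27ac.

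H3K4me3 gave the shortest lists. They held 32574 peaks in DMR1, 38483 in DMR2, 33367 in DMR3, 53676 in DMR4 and 20803 in DMR11, for a mean of 35781 ± 11916 (SD, n = 5). H3K27ac gave 51446, 139112, 97772, 118481 and 87308 peaks in the same order of animals, a mean of 98824 ± 33121 (SD, n = 5). H3K4me1 gave 92143, 158541, 88163, 128455 and 32893 peaks, a mean of 100039 ± 47281 (SD, n = 5). In each of the 5 animals the H3K4me3 list was shorter than both other lists, while H3K27ac and H3K4me1 changed places between animals.

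The number of H3K4me3 peaks minus that of H3K27ac was -1.46 on the log2 scale (adjusted p = 0.0476 over the 3 pairs of marks, exact permutation test, two-sided). It lay -1.37 from that of H3K4me1 (adjusted p = 0.0476, same exact permutation test). H3K27ac and H3K4me1 differed by 0.08 (adjusted p = 0.873, exact permutation test). With the animal kept as a block, the adjusted p of both H3K4me3 differences was 0.0938 in the exact sign-flip test. That test allows no raw p under 0.0625 with 5 animals, so it could not pass. With labels exchanged only within library series the adjusted p of both was 0.05 in the exact permutation test. Neither difference passed the threshold of 0.05 when any 1 animal was left out, although the values stayed between -1.65 and -1.21.

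H3K4me3 peaks were fewer but stood higher over input. The fold over input at the summit, the value given by the authors for each peak, had a median of 11.1 ± 3.97 (SD, n = 5) for H3K4me3, 5.48 ± 0.321 (SD, n = 5) for H3K27ac and 4.51 ± 0.374 (SD, n = 5) for H3K4me1. In DMR4 the medians of H3K4me3 and H3K27ac were close, at 5.01 and 4.94. Lists of different marks come from different antibodies and unknown read depth, so these folds are described without a test. H3K4me3 covered 22.6 ± 6.55 Mb (SD, n = 5), against 66.9 ± 21.5 Mb for H3K27ac and 56.3 ± 28.2 Mb for H3K4me1 (SD, n = 5 each).

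No difference in median width passed the test in the full lists, where DMR4 differed in direction from the other animals. H3K4me3 peaks were 581, 494, 512, 188 and 444 bases wide in DMR1, DMR2, DMR3, DMR4 and DMR11. They were wider than the H3K27ac and the H3K4me1 peaks of the same animal in 4 of 5 animals and narrower than both in DMR4. The means over animals were 443.8 ± 151.2 bases for H3K4me3, 424.2 ± 50.0 for H3K27ac and 416.2 ± 31.9 for H3K4me1 (SD, n = 5 each). No pair of marks passed the exact permutation test on log2 median width (adjusted p = 1 for all 3 pairs), and without DMR4 H3K4me3 differed by 0.29 from H3K27ac and by 0.28 from H3K4me1 on the log2 scale (adjusted p = 0.0857 for both, exact permutation test). When each list was cut to its 20803 most significant peaks, H3K27ac peaks were the wider kind in 4 of 5 animals: H3K4me3 minus H3K27ac was -0.62 on the log2 scale and H3K27ac minus H3K4me1 was 0.65 (adjusted p = 0.0476 for both, exact permutation test). Neither passed with the animal as a block (adjusted p = 0.188 for both, exact sign-flip test), where 5 animals allow no raw p under 0.0625.

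**Figure D1:**
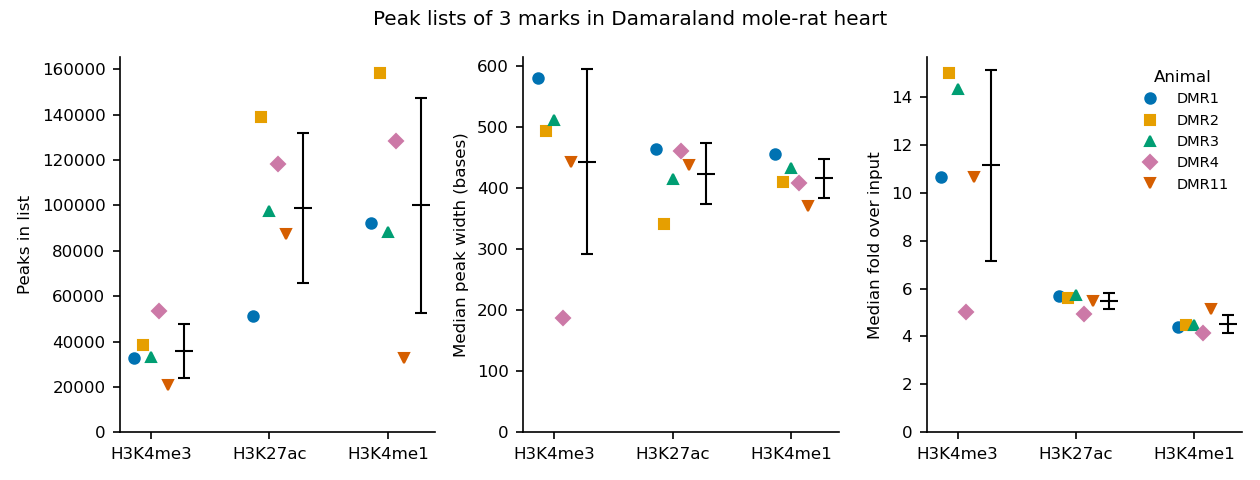
Number of peaks, median peak width in bases and median fold over input (vertical axes) of the 15 lists, by mark (horizontal axis); each symbol is 1 animal, and the black bars show mean ± SD over 5 animals. H3K4me3 has the fewest peaks in every animal, and DMR4 holds the narrow and low H3K4me3 list, at 188 bases and a median fold of 5.01.

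Single lists stood apart from the other 4 of their mark. In the H3K4me3 list of DMR4, 45.2% of peaks had exactly the narrowest width in that list, 158 bases, compared with 4.40% to 13.0% at the narrowest width in the other H3K4me3 lists. The H3K4me1 list of DMR11 was the shortest of its mark, covering 14.8 Mb, where the others covered 49.5 to 90.7 Mb. It shared 0.114 to 0.153 of its combined bases with the H3K4me1 lists of the other animals (Jaccard index). The other pairs of H3K4me1 lists shared 0.255 to 0.282. This index is limited by the length of the shorter list. By peak, 63.2% of DMR11 H3K4me1 peaks met the same mark in the other animals, the highest share of this mark. It was 27.7% to 42.7% for the other H3K4me1 lists. The H3K27ac list of DMR1 was the shortest of that mark. The H3K4me3 list of DMR11 was the shortest of its mark, at 20803 peaks over 11.2 Mb, where the others covered 23.7 to 27.1 Mb. Its length set the equal list length used below, so at equal length it is the whole list. The deposited name of the DMR1 H3K4me1 list begins with the tag 40M, which the labels do not explain and no other heart list of this species carries. Read depth is not known for any list, so its part in these lengths was not tested. Several results that turn on 1 of these animals are given with and without it.

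On average most H3K4me3 peaks carried H3K27ac, and fewer carried H3K4me1. A peak was counted as carrying another mark when a peak of that mark in the same animal covered at least 50% of the shorter of the 2 peaks. H3K27ac was present at 48.7% of H3K4me3 peaks in DMR1, 75.9% in DMR2, 73.1% in DMR3, 47.4% in DMR4 and 85.6% in DMR11, a mean of 66.2% ± 17.2 (SD, n = 5). H3K4me1 was present at 25.7%, 37.9%, 27.2%, 19.2% and 4.46% of them, a mean of 22.9% ± 12.3 (SD, n = 5). Where an overlap of 1 base was enough, the means were 67.7% ± 17.1 for H3K27ac and 32.5% ± 15.0 for H3K4me1 (SD, n = 5). H3K4me1 then reached 50.4% in DMR2. By the 50% rule, H3K27ac was the more frequent partner in 5 of 5 animals, by 43.3 percentage points (adjusted p = 0.0938 over 6 comparisons, exact two-sided sign-flip test). With 5 animals this test cannot give a p below 0.0625, so no comparison of overlap, distance, fold or width within animals could pass 0.05, and the number of animals in each direction is given instead.

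The 2 animals with the lowest share of acetylated H3K4me3 peaks were DMR4, with the narrow H3K4me3 list, and DMR1, with the short H3K27ac list. Among peaks with a -log10 q of at least 4, the share was 63.8% in DMR4 and 47.6% in DMR1. In DMR1, the H3K4me3 peaks met H3K27ac peaks of the other 4 animals at 72.3% on average.

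Seen from the acetylated peaks, the order of the methyl marks was the other way round in the full lists. H3K4me3 was present at 34.3%, 21.4%, 25%, 18.8% and 18.4% of H3K27ac peaks in DMR1, DMR2, DMR3, DMR4 and DMR11, a mean of 23.6% ± 6.56 (SD, n = 5). H3K4me1 was present at 40.2%, 46.3%, 34.8%, 42.1% and 15.9% of them, a mean of 35.8% ± 11.9 (SD, n = 5). H3K4me1 was the more frequent partner in 4 of 5 animals, DMR11 being the exception, with a difference of -12.3 points for H3K4me3 minus H3K4me1 (adjusted p = 0.15, exact sign-flip test). This order depended on how far down the lists were read: over the 20803 most significant peaks of each list, H3K4me3 was present at 54.7% ± 8.38 and H3K4me1 at 24.5% ± 2.93 of H3K27ac peaks (SD, n = 5), a difference of 30.2 points the other way. The most significant acetylated peaks thus carried H3K4me3 more often than H3K4me1, and the full lists the reverse.

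H3K4me1 peaks were mostly alone or acetylated. H3K27ac was present at 23.0%, 39.9%, 43.5%, 44.1% and 51.2% of H3K4me1 peaks in DMR1, DMR2, DMR3, DMR4 and DMR11, a mean of 40.4% ± 10.5 (SD, n = 5). H3K4me3 was present at 7.87% ± 2.97 of them (SD, n = 5), from 2.82% in DMR11 to 10.3% in DMR3. The difference of -32.5 points had the same direction in 5 of 5 animals (adjusted p = 0.0938, exact sign-flip test).

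**Figure D2:**
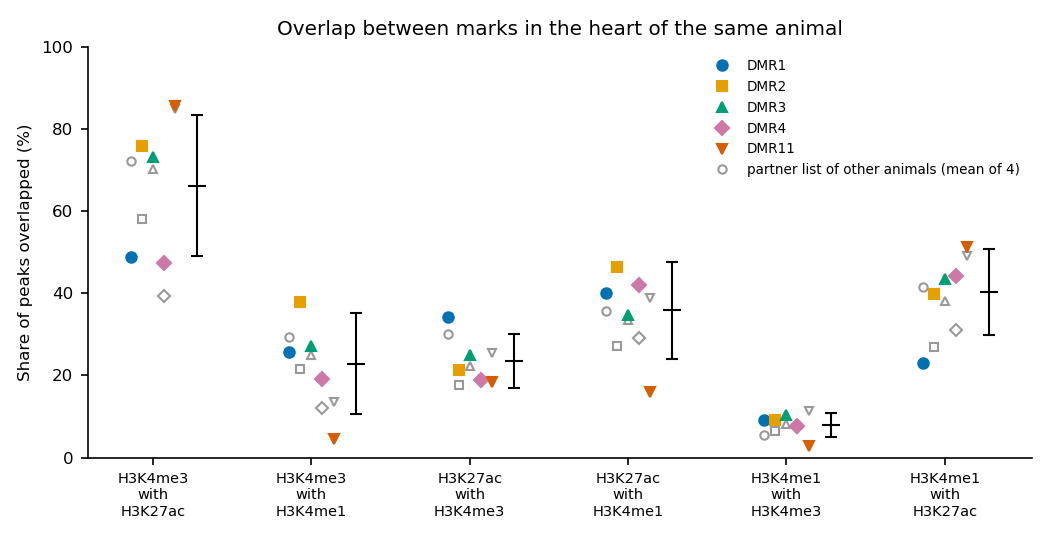
Share of peaks of the first mark that carry the second mark (vertical axis, percent) for the 6 ordered pairs of marks (horizontal axis); filled symbols use lists of the same animal, hollow symbols the mean over the partner lists of the 4 other animals, and bars show mean ± SD over 5 animals. H3K4me3 with H3K27ac is the highest share, at 66.2%, and H3K4me1 with H3K4me3 the lowest, at 7.87%.

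Overlap between marks was not symmetric in the full lists, where a share depends on the length of its own list. H3K4me3 peaks with H3K27ac numbered 15877, 29226, 24407, 25430 and 17803 in DMR1, DMR2, DMR3, DMR4 and DMR11. H3K27ac peaks with H3K4me3 numbered 17665, 29722, 24447, 22255 and 16083. H3K4me3 was the shorter list in 5 of 5 animals, so the direction of its differences carries little beyond list length. H3K4me3 was acetylated more often than H3K27ac carried H3K4me3, by 42.6 points in 5 of 5 animals, but by 1.98 points in 2 of 5 when all lists had 20803 peaks. Likewise H3K4me3 carried H3K4me1 more often than the reverse by 15.0 points in 5 of 5 animals, and by -0.04 points at equal length. H3K27ac with H3K4me1 and H3K4me1 with H3K27ac differed by -4.52 points in 3 of 5 animals (adjusted p = 0.688, exact sign-flip test), and by 3.18 points without DMR11. At equal length this difference was -5.47 points in 5 of 5 animals (adjusted p = 0.0938, exact sign-flip test).

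Every H3K4me3 peak falls in 1 of 4 kinds. In the mean over animals 48.2% ± 20.3 carried H3K27ac without H3K4me1, 17.9% ± 10.5 carried both, 4.95% ± 3.54 carried H3K4me1 without H3K27ac and 28.9% ± 15.4 carried neither (SD, n = 5). Of H3K27ac peaks, 47.5% ± 12.9 stood alone, 28.9% ± 9.24 carried H3K4me1 only, 16.7% ± 6.5 H3K4me3 only and 6.91% ± 2.72 both (SD, n = 5). Of H3K4me1 peaks, 56.8% ± 8.79 stood alone, 35.3% ± 10.7 carried H3K27ac only, 2.81% ± 2.00 H3K4me3 only and 5.06% ± 2.26 both (SD, n = 5). H3K4me3 with H3K4me1 and no acetylation was the least frequent kind from the side of either methyl mark on average. DMR1 was an exception, where 5.84% of H3K4me1 peaks carried H3K4me3 only and 3.40% both.

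Where marks overlapped, H3K4me3 and H3K27ac summits nearly coincided and H3K4me1 summits were more widely spread. The summit is the base of highest signal within a peak as called by the authors. The median distance from an H3K4me3 summit to the nearest H3K27ac summit among overlapping peaks was 81 bases in DMR1, 70 in DMR2, 66 in DMR3, 118 in DMR4 and 68 in DMR11, a mean of 80.6 ± 21.7 (SD, n = 5). From H3K27ac to H3K4me1 it was 199, 198, 203, 203 and 196 bases, a mean of 199.8 ± 3.11 (SD, n = 5). From H3K4me3 to H3K4me1 it was 399, 350, 354, 284 and 280.5 bases, a mean of 333.5 ± 50.6 (SD, n = 5). The 3 sets of distances did not overlap between pairs of marks. On average the distances from H3K4me3 to H3K4me1 had no maximum away from the summit. Bins of 50 bases that start at 0, 50 and 100 bases held 8.66%, 8.63% and 8.48% of them, and later bins less. H3K4me3 peaks with both marks were wider than those with H3K27ac only, at 784.1 ± 202.6 against 628.4 ± 147.4 bases (SD, n = 5), and this part was not tested.

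The order held in 5 of 5 animals for each pair of distances. H3K4me1 lay 252.9 bases further from the H3K4me3 summit than H3K27ac did, 133.7 bases further from H3K4me3 than from H3K27ac, and 119.2 bases further from H3K27ac than H3K4me3 did (adjusted p = 0.0625 for each, exact sign-flip test over 5 animals). At equal list length the 3 differences were 435.2, 73.9 and 361.3 bases, the first and the third in 5 of 5 animals (adjusted p = 0.0938, exact sign-flip test) and the second in 3 of 5 (adjusted p = 0.25, exact sign-flip test). Summits within 100 bases of each other made up 56.4% ± 6.51 of overlapping H3K4me3 and H3K27ac peaks, 29.0% ± 0.649 of H3K27ac and H3K4me1 peaks and 17.5% ± 1.73 of H3K4me3 and H3K4me1 peaks (SD, n = 5). The summit of the acetylated partner fell inside the H3K4me3 peak at 81.4% ± 5.86, and that of the H3K4me1 partner at 67.7% ± 4.05 (SD, n = 5), a difference of 13.6 points in 5 of 5 animals and 29.8 points when an overlap of 1 base was enough.

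**Figure D3:**
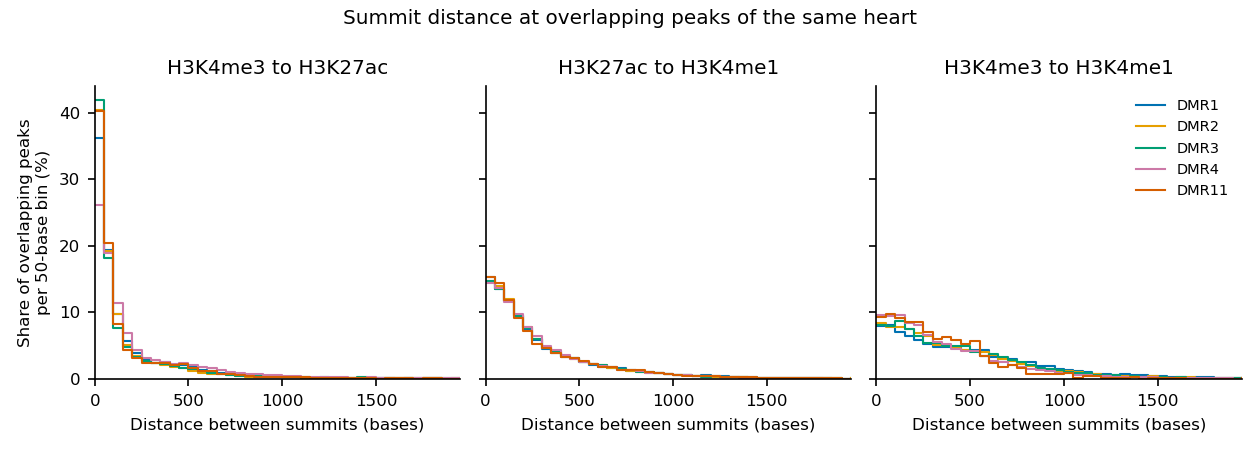
Share of overlapping peaks (vertical axis, percent per bin of 50 bases) by distance between the summits of the 2 marks in bases (horizontal axis), 1 line per animal. The first bin holds 37.0% of H3K4me3 and H3K27ac pairs on average, and DMR4, at 26.1%, is the lowest line there.

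The spacing of H3K27ac and H3K4me1 differed between acetylated peaks with and without H3K4me3. At H3K27ac peaks with H3K4me3, the median distance to the overlapping H3K4me1 summit was 307 bases in DMR1, 349 in DMR2, 377 in DMR3, 371 in DMR4 and 533 in DMR11. At H3K27ac peaks without H3K4me3 it was 183, 173, 177, 180 and 170 bases. The means were 387.4 ± 85.9 and 176.6 ± 5.22 bases (SD, n = 5), and the 2 sets did not overlap. Peaks with H3K4me3 were also the wider ones, and this part was not tested. H3K27ac summits lay inside an H3K4me1 peak at 14.3% ± 7.58 of peaks with H3K4me3 and at 32.4% ± 13.1 of peaks without it (SD, n = 5), lower with H3K4me3 in 5 of 5 animals. These comparisons were chosen after the distances had been seen and are given without a test.

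H3K4me1 on both sides of a summit was uncommon. An H3K4me1 summit lay within 1000 bases on both sides of 5.81% ± 3.56 of H3K4me3 summits and on 1 side only of 33.3% ± 9.55 (SD, n = 5). For H3K27ac summits the shares were 11.8% ± 5.26 and 41.5% ± 10.7 (SD, n = 5). DMR11, with its short H3K4me1 list, had the lowest share on both sides for either mark, at 1.06% and 3.51%.

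The strongest H3K4me3 peaks were nearly all acetylated. The H3K4me3 peaks of each animal were divided by fold into 10 equal classes. In the class with the highest fold, H3K27ac was present at 85.4% in DMR1, 99.97% in DMR2, 99.3% in DMR3, 99.5% in DMR4 and 99.0% in DMR11, a mean of 96.6% ± 6.30 (SD, n = 5). In the class with the lowest fold it was present at 26.4%, 32.8%, 46.5%, 16.0% and 69.5%, a mean of 38.2% ± 20.7 (SD, n = 5). The top and the bottom class did not overlap, and DMR1 was the only animal under 98% at the top.

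For H3K4me1 the answer turned on whether the peak or its summit was asked about. The share of H3K4me3 peaks overlapped by H3K4me1 was 18.2% ± 10.2 in the lowest class and 34.9% ± 16.9 in the highest (SD, n = 5), and it was higher in the highest class in 5 of 5 animals, though in DMR11 only by 5.81% against 5.91%. The share whose H3K4me3 summit lay inside an H3K4me1 peak was 24.6%, 23.8%, 24.8%, 7.73% and 4.81% in the lowest class of DMR1, DMR2, DMR3, DMR4 and DMR11. In the highest class it was 1.29%, 3.07%, 1.65%, 6.54% and 0.240%. It was thus lower at the strongest peaks in 5 of 5 animals, with means of 17.2% ± 10.0 and 2.56% ± 2.45 (SD, n = 5), the latter 1.56% without DMR4. In DMR4 the 2 values were close, and its highest share was in the middle of the range, at 18.8% in class 7 of 10.

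The nearest H3K4me1 summit lay more than 300 and at most 1500 bases away at 23.9% ± 7.69 of the weakest and 63.7% ± 12.7 of the strongest class of H3K4me3 peaks (SD, n = 5). Strong H3K4me3 peaks were also wide: the median width was 187.4 ± 39.4 bases in the lowest class and 1254 ± 286 bases in the highest (SD, n = 5). A wide peak meets more neighbours, so the share by summit, which does not grow with the width of the H3K4me3 peak, is set beside the share by overlap. The summit shares were computed after the other values had been seen and carry no test.

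**Figure D4:**
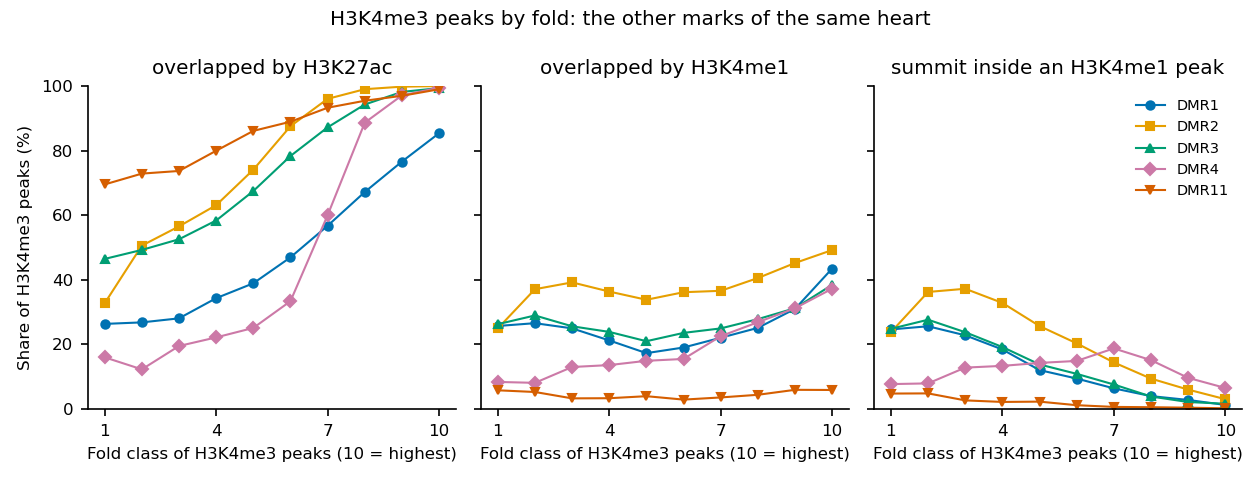
Share of H3K4me3 peaks (vertical axis, percent) overlapped by H3K27ac, overlapped by H3K4me1, or with their summit inside an H3K4me1 peak, by fold class from 1, the lowest, to 10, the highest (horizontal axis), 1 line per animal. H3K27ac reaches 96.6% on average in the top class, while the share of summits inside H3K4me1 ends at 2.56%.

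The strongest H3K27ac peaks also carried H3K4me3 most often. Of the strongest 10% of H3K27ac peaks, 71.2% ± 9.0 carried H3K4me3, compared with 10.4% ± 10.6 of the weakest (SD, n = 5). The weakest class held 29.3% in DMR1, and its mean without that animal was 5.72%. H3K4me1 was present at 53.3% ± 12.6 of the strongest and 23.1% ± 9.80 of the weakest class (SD, n = 5). The summit lay inside an H3K4me1 peak at 27.8% ± 10.5 of the strongest and 19.4% ± 9.25 of the weakest class (SD, n = 5), higher in the strongest class in 4 of 5 animals, DMR2 being the exception with 27.2% against 30.6%. The share was not highest in the strongest class on average: it was 33.3% in class 8 and 33.1% in class 9, and it was lower in class 10 than in class 9 in DMR2, DMR3 and DMR4. Among H3K4me1 peaks, H3K27ac was present at 68.3% ± 12 of the strongest and 31.0% ± 10.5 of the weakest class (SD, n = 5).

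Median fold was higher at peaks with more marks, by the most for H3K4me3, less for H3K27ac and little for H3K4me1. H3K4me3 peaks with no other mark had a median fold of 6.80, 5.45, 6.26, 4.10 and 6.98 in DMR1, DMR2, DMR3, DMR4 and DMR11. With 1 other mark it was 16.2, 21.4, 19.7, 9.60 and 11.6, and with both others 22.8, 28.0, 24.6, 11.1 and 12.9. The log2 difference between peaks with 3 marks and with 1 was 1.68, in 5 of 5 animals (adjusted p = 0.0703 over 9 comparisons, exact sign-flip test). That between 3 marks and 2 was 0.31, also in 5 of 5 animals.

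H3K4me3 peaks were higher with acetylation than without it, whichever H3K4me1 state they had. H3K4me3 peaks with H3K27ac only had a median fold of 18.3 ± 6.86 and those with both marks 19.9 ± 7.46, whereas those with H3K4me1 only had 6.10 ± 0.956 and those alone 5.92 ± 1.18 (SD, n = 5). When marks were assigned by the H3K4me3 summit instead of by overlap, peaks with the summit in H3K27ac only had a median fold of 23.1 ± 11.2. It was 6.71 ± 1.09 with the summit in both marks, 5.65 ± 0.664 in H3K4me1 only and 6.30 ± 1.43 in neither (SD, n = 5). By summit, acetylated peaks within H3K4me1 thus stood little above peaks without acetylation. In DMR1 those in both marks, at 5.71, were lower than those in neither, at 7.85. With marks by summit, the difference between 3 marks and 2 became -1.49, and that between 3 and 1 became 0.11. Compared only among peaks of like width, in 5 equal classes of width, 3 marks against 1 gave 0.47 and 3 against 2 gave -0.09.

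H3K27ac peaks alone had a median fold of 5.10, 4.83, 4.82, 4.34 and 4.95 in DMR1, DMR2, DMR3, DMR4 and DMR11. With 1 other mark it was 5.95, 6.33, 6.94, 5.74 and 7.88, and with both 8.09, 13.8, 12.4, 10.2 and 13.2. The log2 difference between 3 marks and 1 was 1.24 and that between 3 and 2 was 0.79, each in 5 of 5 animals (adjusted p = 0.0703, exact sign-flip test). Within the 5 width classes they were 0.42 and 0.21. By partner, the median fold was 5.89 ± 0.380 with H3K4me1 only, 8.58 ± 1.63 with H3K4me3 only and 11.5 ± 2.36 with both (SD, n = 5), so acetylated peaks were highest where H3K4me3 was present.

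H3K4me1 peaks hardly differed in height. Their median fold was 4.31 ± 0.373 alone, 4.87 ± 0.305 with H3K27ac only, 4.80 ± 0.324 with H3K4me3 only and 4.97 ± 0.272 with both (SD, n = 5). The log2 difference between 3 marks and 1 was 0.21 in 5 of 5 animals (adjusted p = 0.0703, exact sign-flip test), and that between 3 and 2 was 0.03 in 4 of 5 (adjusted p = 0.125, exact sign-flip test). At equal list length the first was 0.05.

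**Figure D5:**
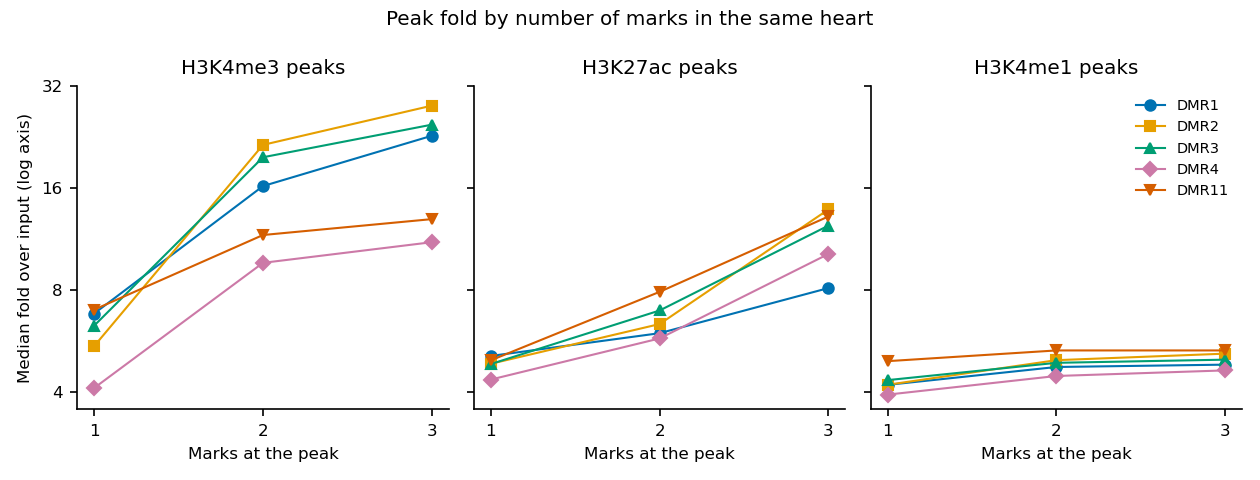
Median fold over input (vertical axis, log scale) of H3K4me3, H3K27ac and H3K4me1 peaks with 1, 2 or 3 marks by overlap (horizontal axis), 1 line per animal. From 1 mark to 3, the means go from 5.92 to 19.9 for H3K4me3, from 4.81 to 11.5 for H3K27ac and from 4.31 to 4.97 for H3K4me1.

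Peaks with more marks were wider as well. H3K4me3 peaks had a median width of 249.4 ± 92.6 bases alone, 577.7 ± 115.7 with 1 other mark and 784.1 ± 202.6 with both (SD, n = 5). H3K27ac peaks went from 323.6 ± 48.5 to 562.0 ± 102.1 and 1204 ± 227 bases (SD, n = 5), the widest kind of any mark. H3K4me1 peaks went from 369.0 ± 32.8 to 519.8 ± 67.2 and 529.4 ± 89.6 bases (SD, n = 5). The log2 differences between 3 marks and 1 were 1.70 for H3K4me3, 1.89 for H3K27ac and 0.51 for H3K4me1, each in 5 of 5 animals (adjusted p = 0.0703 for each, exact sign-flip test). For H3K27ac it was 0.67 at equal list length. A wider peak is also more likely to meet another by position alone, and this part was not tested.

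Merging the 15 lists gave 268279 regions, in which presence could be followed across animals. H3K4me3 was called in all 5 animals at 15565 regions. Of these, 67.9% had H3K27ac in all 5 animals and 0.771% in none, while 25% had H3K4me1 in all 5 and 13.7% in none. H3K27ac was called in all 5 animals at 26479 regions, and H3K4me3 split them: 39.9% had it in all 5 animals, 42.5% in none, and the rest in 1 to 4. H3K4me1 was more graded at the same regions, present in all 5 animals at 31.6%, in none at 8.22% and in 1 to 4 animals at the rest. Exactly 4 animals had it at 23.4%. H3K4me1 was called in all 5 animals at 13192 regions, of which 63.5% had H3K27ac in all 5 and 53.4% had H3K4me3 in none. A region counts as having H3K4me1 in all 5 animals only where the short H3K4me1 list of DMR11 has it. None of these shares was computed without that animal.

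By number of regions, the combination held most often by the same region in every animal was H3K27ac with H3K4me1. Those regions were 6.80% of the 51442 that showed it in at least 1 animal. Each other combination was held in every animal by fewer regions. The others numbered 3213 for 3 marks, 1092 for H3K4me3 with H3K27ac, 680 for H3K27ac alone, 652 for H3K4me1 alone, 44 for H3K4me3 alone and 3 for H3K4me3 with H3K4me1. As a share of the regions that showed the combination in at least 1 animal, the 3-mark combination recurred most, at 15.2%, and H3K4me3 with H3K4me1 least, at 0.0476%. By this share H3K4me3 with H3K27ac, at 6.34%, came close to H3K27ac with H3K4me1. H3K27ac alone recurred at 0.804%, H3K4me1 alone at 0.457% and H3K4me3 alone at 0.117%. A merged region is long where many peaks join, with a median of 3752 bases for 3 marks, 3750 for H3K27ac with H3K4me1 and 625.5 for H3K4me3 alone.

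Single regions show the position of the marks base by base. Those named had, in each combination, the highest fold rank in the animal where that rank was lowest, and their values are a description without a test. Coordinates are on build DMR_v1.0, and what genes lie there was not analysed here. A 3-mark region on scaffold KN124375.1, from 1279553 to 1285398, had H3K4me3 summits 1387, 1399, 1361, 1398 and 1399 bases from its start in DMR1, DMR2, DMR3, DMR4 and DMR11. The strongest H3K27ac summits lay at 1413, 1398, 1345, 1368 and 1407 bases, and the strongest H3K4me1 summits at 3637, 3558, 2944, 3949 and 3933 bases. In this region H3K4me3 and H3K27ac thus peaked at the same place in every animal, and H3K4me1 to 1 side. The same did not hold in every animal in the longer 3-mark regions given below. The fold there was 62.7 ± 27.3 for H3K4me3, 37.0 ± 9.79 for H3K27ac and 8.34 ± 2.59 for H3K4me1 (SD, n = 5).

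A region with H3K4me3 and H3K27ac and no H3K4me1 in any animal lay on KN122777.1 from 4507346 to 4509235. It held 1 peak of each mark in each animal, with summits 1393 ± 9.99 bases from its start for H3K4me3 and 1384 ± 32.6 for H3K27ac (SD, n = 5). The folds were 46.9 ± 34.9 and 29.0 ± 11.4 (SD, n = 5), highest in DMR2 for both marks, at 106.6 and 46.6.

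A region with H3K27ac and H3K4me1 and no H3K4me3 in any animal lay on KN122257.1 from 1575021 to 1586086. Its strongest H3K27ac summit was 3814 ± 68.7 bases from the start in all animals (SD, n = 5), with a fold of 26.5 ± 8.30. The strongest H3K4me1 summit was at 2808, 2982 and 2879 bases in DMR1, DMR4 and DMR11 and at 8836 and 9297 bases in DMR2 and DMR3, with a fold of 12.1 ± 2.21 (SD, n = 5). The strongest H3K27ac summit thus had 1 steady place and the strongest H3K4me1 summit more than 1, in a region chosen by its H3K27ac fold. It held 6 ± 1 H3K27ac and 6.4 ± 1.34 H3K4me1 peaks per animal (SD, n = 5).

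The 2 other 3-mark regions ranked above the one on KN124375.1 and were far longer. That on KN122776.1 from 6184155 to 6214289 held 10.2 ± 4.09 H3K27ac and 7 ± 2.12 H3K4me3 peaks per animal, and its widest feature was H3K4me3, whose strongest peak was 7928 ± 973 bases wide (SD, n = 5). Its strongest H3K4me3 summit lay 7978 ± 249 bases from the start and its strongest H3K27ac summit 22041 ± 3833 bases (SD, n = 5). The region on KN122665.1 from 4743535 to 4786956 held 22.2 ± 3.11 H3K4me1 and 17.6 ± 2.41 H3K27ac peaks and 2.60 ± 1.14 H3K4me3 peaks (SD, n = 5), with the H3K4me3 summit 43097 ± 31.7 bases from its start, at 1 end. Its strongest H3K27ac summit lay at 38973 ± 4126 bases (SD, n = 5), from 34290 to 43104. A second region with H3K27ac and H3K4me1, on KN124838.1 from 535303 to 560215, held 13.8 ± 1.92 H3K4me1 and 11 ± 4.30 H3K27ac peaks (SD, n = 5).

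The leading regions with a single mark in every animal were chosen in the same way. H3K27ac alone on KN125438.1 from 9199498 to 9201928 had a fold of 14.3 ± 4.37, H3K4me3 alone on KN124549.1 from 17918 to 18903 a fold of 18.2 ± 9.21, and H3K4me1 alone on KN122240.1 from 2622966 to 2628101 a fold of 8.81 ± 1.59 (SD, n = 5 each). The region with H3K4me3 and H3K4me1 and no acetylation, on KN122083.1 from 1460993 to 1462687, had folds of 15.6 ± 7.67 and 5.31 ± 1.60 (SD, n = 5).

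Lists of the same animal overlapped slightly more than lists of different animals. Each animal's list was set against the partner lists of all 5 animals, and the mean over matched pairs was compared with all 120 ways of pairing the lists (exact matching test, one-sided). H3K27ac peaks met H3K4me1 of the same animal more often by 2.95 percentage points, and H3K4me1 peaks met H3K27ac more often by 3.05 points (adjusted p = 0.0167 for both over 6 comparisons, exact matching test). For H3K27ac with H3K4me3 the excess was 0.65 points (adjusted p = 0.0167, exact matching test), and for H3K4me3 with H3K4me1 it was 2.56 points (adjusted p = 0.025, exact matching test). For H3K4me3 with H3K27ac it was 1.16 points (adjusted p = 0.25, exact matching test) and for H3K4me1 with H3K4me3 it was 0.09 points (adjusted p = 0.458, exact matching test).

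The excess is small beside the spread between animals, and single animals went the other way: H3K4me1 was present at 15.9% of H3K27ac peaks in DMR11 with its own list and at 38.8% with the lists of the other animals. Within library series the excesses of H3K27ac with H3K4me1 and of H3K4me1 with H3K27ac were 3.16 and 3.77 points, but none of the 6 passed (lowest adjusted p = 0.1, exact matching test, where 12 matchings allow no raw p under 0.0833). Peaks of the same mark in the other animals were met at 68.6% ± 19.7 of H3K4me3, 61.0% ± 16.1 of H3K27ac and 41.3% ± 13.7 of H3K4me1 peaks (SD, n = 5). For H3K4me3 and H3K4me1 these means lay close to the mean shares with H3K27ac of the same animal, 66.2% and 40.4%, with no test. Single animals differed in both directions. In DMR1 the values were 67.3% against 48.7% for H3K4me3 and 41.0% against 23.0% for H3K4me1. In DMR2 they were 61.4% against 75.9% and 27.7% against 39.9%, and in DMR3 71.9% against 73.1% and 42.7% against 43.5%.

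In liver of the same species, from DMR1 to DMR4, also used for heart, and DMR6, a female with an estimated age of 48 months, H3K27ac carried H3K4me1 more often. The share was 35.8% ± 11.9 in heart and 64.4% ± 7.18 in liver (SD, n = 5 each), from 15.9% to 46.3% in heart and from 55.2% to 75.2% in liver, so the tissues did not overlap. The difference was -28.5 points (adjusted p = 0.0159 over 2 comparisons, exact permutation test), -28.6 points without DMR6 (adjusted p = 0.0159, exact permutation test), -26.3 points within library series (adjusted p = 0.02, exact permutation test) and -10.3 points over the 20803 most significant peaks (adjusted p = 0.0317, exact permutation test). Over the 4 animals with both tissues, with the animal as a block, it was -23.6 points (adjusted p = 0.25, exact sign-flip test, which cannot go below a raw p of 0.125 with 4 animals). H3K4me1 lists were longer in liver, at 145623 ± 15260 peaks against 100039 ± 47281 in heart (SD, n = 5 each), and the part this played beyond the equal-length value was not tested.

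The reverse share, of H3K4me1 peaks with H3K27ac, was 40.4% ± 10.5 in heart and 40.2% ± 5.68 in liver (SD, n = 5 each), a difference of 0.13 points (adjusted p = 0.984, exact permutation test). At equal list length it was -8.77 points (adjusted p = 0.0397, exact permutation test). Liver H3K4me3 with both other marks was measured in 2 animals. There H3K27ac was present at 74.4% and 80.9% of H3K4me3 peaks, inside the range of heart, and H3K4me1 at 33.4% and 55.6%.

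Guinea pig heart gave no share that passed a test against Damaraland mole-rat heart, with peaks called on another genome build. With 5 against 3 animals the exact permutation test allows no raw p under 0.0179. A single share could thus not pass over the 6 comparisons, and the outcome does not show that the species are alike. The guinea pigs were wild-type adult males aged 2.3 months. H3K27ac was present at 84.1% ± 6.86 of H3K4me3 peaks in 3 guinea pigs and 66.2% ± 17.2 in 5 mole-rats, a difference of -18.0 points (SD; adjusted p = 0.429, exact permutation test). H3K4me1 was present at 47.1% ± 4.08 of guinea pig H3K27ac peaks and 35.8% ± 11.9 in mole-rat (SD; difference -11.3 points, adjusted p = 0.429, exact permutation test), or -6.32 points without DMR11. The other 4 shares had adjusted p from 0.429 to 0.982 (exact permutation test). In the hearts of 2 wild-type adult male naked mole-rats, NMR31 and NMR32, aged 14 and 17 months, H3K27ac was present at 70.6% and 77.9% of H3K4me3 peaks and H3K4me1 at 17.6% and 26.9% of H3K27ac peaks, both within the range of the Damaraland mole-rat.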

How the data were processed

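ChIP-seq peak lists in narrowPeak form were used as the authors deposited them, 1 per library, with MACS2 named in the submitters' processing notes without a version. Each list was called against the input of its animal, per the names of the deposited files. The aligner and read filters: not given in the sources used here. In the narrowPeak columns, the deposited values are the fold over input (a ratio) at the summit, −log10 p and −log10 q per peak, and positions on build DMR_v1.0. Read depth is unknown, so no interval that needs it is given. The 15 heart lists hold 1173217 peaks.

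Overlaps, summit distances, medians per list and exact tests were computed in Python 3.11.15 with NumPy 2.4.6 and pandas 2.3.3, and the functions were checked on simulated data. Overlap meant at least 50% of the shorter peak. Marks were compared on peak number and width by exact permutation over lists, and within animals by exact sign-flip; p-values were adjusted by Benjamini-Hochberg within each family, with a threshold of 0.05. Libraries with the same animal number come from the same animal per the labels, so the animal pairs them. Alternatives were an overlap of 1 base, −log10 q of at least 4, the 20803 most significant peaks of each list, scaffolds of at least 1 Mb, nearest summits within 5000 bases, bases covered, the animal as replicate block, within library series, 1 series only and leaving out each animal. Marks by summit, fold within 5 width classes (at least 20 peaks of each kind), heart against liver and guinea pig within series, and the block on widths at equal length were added after seeing the data. Regions were named by the lowest fold percentile of the leading mark over 5 animals, among merged regions of 1 combination in all 5: the top 3 for 3 marks, 2 for H3K27ac with H3K4me1 and 1 for each other combination. The lists and comparisons were chosen with earlier results of these data known. The gene annotation at hand was of another build, so genes and sequences were not analysed here.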

Additional observations from a re-analysis of the deposited data

Results flagged for a closer look

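Of 50 sets of 5 animals examined for a single value far from the others, 1 was picked out, where chance alone picks about 1 in 20. The median distance between H3K4me3 and H3K27ac summits was 118 bases in DMR4 and 66 to 81 bases in the other 4 animals. The H3K4me3 list of DMR4 also held 45.2% of peaks at its narrowest width and had the lowest median fold of its mark, 5.01. Whether these values move together for 1 reason was not tested. None of 7 differences between tissues or species in the contrast of 2 shares passed a test of the difference itself. The lowest adjusted p was 0.0556 (exact permutation test), for the share of H3K27ac with H3K4me1 minus the share of H3K4me1 with H3K27ac. That difference was -28.6 points for heart minus liver. Its raw p of 0.00794 is the lowest that 5 against 5 animals allow in this exact permutation test. For 5 against 3 animals the lowest is 0.0179. No single contrast among the 7 could thus pass alone after adjustment, and the outcome does not show that the contrasts are alike.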

How the results depend on the processing

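Over 48 results and 610 alternatives, 60 lost the call, 2 gained it, 55 changed sign and the others kept the direction and the side of the threshold; the cause was not tested unless fewer lists or peaks were used. Read depth is unknown, and with 5 animals the sign-flip test cannot pass 0.05, so stability there means direction only.

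For H3K4me3 against H3K27ac and H3K4me1, the log2 differences in peak number were -1.46 and -1.37 with the animal as replicate block (adjusted p = 0.0938, exact sign-flip) and within library series (0.05, exact permutation). They were -1.50 and -1.65 in the do series, -1.43 and -1.19 in the vl series, and -1.65 to -1.30 and -1.55 to -1.21 with 1 animal left out. The second was -0.81 at −log10 q of at least 4 and -1.16 by bases covered. H3K27ac minus H3K4me1 was -0.15 in the do series and -0.25 to 0.31 with 1 animal left out. The block changed no other call on peak number or width in the full lists.

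Log2 widths of H3K4me3 minus H3K27ac were 0.0086 at −log10 q of at least 4, -0.62 at equal length, 0.21 in the vl series and -0.16 to 0.29 with 1 animal left out. Those of H3K4me3 minus H3K4me1 were 0.031, 0.029, 0.28 and -0.089 to 0.28. With the animal as replicate block at equal length, H3K4me3 minus H3K27ac, H3K4me3 minus H3K4me1 and H3K27ac minus H3K4me1 were -0.62, 0.029 and 0.65 (adjusted p = 0.188, 0.75 and 0.188, exact sign-flip). H3K27ac minus H3K4me1 was 0.65 at equal length, -0.046 in the do series and -0.033 to 0.094 with 1 animal left out.

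At equal length the share of H3K27ac with H3K4me3 minus with H3K4me1 was 30.2 points, and H3K4me3 with H3K4me1 minus the reverse was -0.041. H3K27ac with H3K4me1 minus the reverse was 2.15 in the do series and -9.93 to 3.18 with 1 animal left out. H3K4me3 fold at 3 marks against 2 was -1.49 by summit and -0.092 within width classes. For H3K4me1 it was -0.0079 by summit and -0.0014 at equal length. H3K4me1 width at 3 against 2 was -0.032 at −log10 q of at least 4, -0.16 at equal length and -0.0032 in the vl series, and H3K27ac width at 2 against 1 was -0.045 at equal length.

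The excess in the same animal for H3K4me3 with H3K4me1 was 2.33 points at −log10 q of at least 4, 0.44 at equal length, 1.58 with 1 base, 3.63 within series, 2.84 (do), 4.15 (vl) and 1.45 to 3.67 with 1 animal left out. For H3K27ac with H3K4me3 it was 0.60 at −log10 q of at least 4, 0.50 with 1 base, 0.69 within series, 0.68 (do), 0.69 (vl) and 0.41 to 0.79. For H3K27ac with H3K4me1 it was 2.24 with 1 base, 3.16 within series, 3.87 (do), 2.69 (vl) and 2.63 to 3.50. For H3K4me1 with H3K27ac it was 2.36 with 1 base, 3.77 within series, 3.48 (do), 3.96 (vl) and 2.47 to 3.48. For H3K4me1 with H3K4me3 it was -0.12 with 1 base, -0.28 (vl) and -0.20 to 0.75. No excess passed with 1 animal left out, where 4 animals allow no raw p under 0.0417 (exact matching test).

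Heart minus liver with the animal as replicate block was -23.6 points for H3K27ac with H3K4me1 and -4.54 for H3K4me1 with H3K27ac. The latter was -0.18 at −log10 q of at least 4, -8.77 at equal length and -2.59 to 4.46 with 1 animal left out. Mole-rat minus guinea pig was -0.56, -10.1 and -0.11 for H3K27ac with H3K4me3 (−log10 q of at least 4, equal length, within series) and 0.76, 0.19 and 2.33 for H3K4me1 with H3K27ac. For H3K4me1 with H3K4me3 it was -1.24 at equal length and -1.97 with 1 base. With 1 animal left out these 3 ran from -1.66 to 2.32, -4.77 to 4.11 and -0.30 to 1.57.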
